A study of Homo sapiens with 17 samples.

Results

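The genes that make, store, retrieve and break down catecholamines were followed in IMR32, an established human neuroblastoma cell line, after induction of NOTCH3IC, the active intracellular part of a Notch receptor. The members were 10 genes chosen by name: DBH, TH, DDC, GCH1, SLC18A1, SLC18A2, SLC6A2, MAOA, MAOB and CYB561. Every probe set annotated to them was taken, which gave 28 probe sets of 54675 on the array and 10 genes of 19775 with a probe set of their own. By gene these were 2 probe sets for DBH, 1 for TH, 2 for DDC, 1 for GCH1, 1 for SLC18A1, 2 for SLC18A2, 8 for SLC6A2, 3 for MAOA, 3 for MAOB and 5 for CYB561.

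Both clones, c8 and c6, carry NOTCH3IC under doxycycline control, and doxycycline was put into the medium of each. RNA was hybridised to 1 Affymetrix array per clone and time, at 8 times up to 96 in clone c8 and at 9 times up to 120 in clone c6, 17 arrays in all. The labels give the times as bare numbers, and they are printed as such. Late stands for times 48, 72 and 96 (6 arrays), early for times 4, 8 and 12 (6 arrays) and start for time 0 (2 arrays). No culture without doxycycline after time 0 is among these arrays, so time in culture, doxycycline and NOTCH3IC cannot be told apart, and each line is a single clone. NOTCH3 itself gave a late signal of 778 ± 67.6 in clone c8, against 218.3 at start, and of 428 ± 37.1 in clone c6, against 94.6 at start (SD, n = 3 late arrays each). The labels do not say whether its probe set can read the construct.

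Catecholamines are made from tyrosine. Tyrosine hydroxylase (TH), which needs the pterin cofactor whose synthesis GCH1 begins, makes DOPA, DDC turns DOPA into dopamine, and DBH turns dopamine into noradrenaline inside vesicles. Vesicular monoamine transporters (SLC18A1 and SLC18A2) fill those vesicles, cytochrome b561 (CYB561) passes electrons across the vesicle membrane to renew the ascorbate that DBH uses, the noradrenaline transporter (SLC6A2) brings released noradrenaline back into the cell, and the monoamine oxidases (MAOA and MAOB) break amines down at the mitochondrial outer membrane. Sympathetic neurons use this set of genes, and neuroblastoma arises from their precursors.

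The promoters of DBH and SLC18A2 are shown because both genes fell after induction and both have a window in the promoter table used. The windows are RefSeq sequence of GRCh38.p14, from 250 bases before to 50 bases after the annotated start of the gene, on the plus strand at chr9:133636113-133636412 for DBH and at chr10:117240864-117241163 for SLC18A2. Capitals mark matches to CACGNG, the site bound by HES and HEY repressors, and to TGACG or the full cyclic AMP response element TGACGTCA, which holds TGACG on both strands.
DBH: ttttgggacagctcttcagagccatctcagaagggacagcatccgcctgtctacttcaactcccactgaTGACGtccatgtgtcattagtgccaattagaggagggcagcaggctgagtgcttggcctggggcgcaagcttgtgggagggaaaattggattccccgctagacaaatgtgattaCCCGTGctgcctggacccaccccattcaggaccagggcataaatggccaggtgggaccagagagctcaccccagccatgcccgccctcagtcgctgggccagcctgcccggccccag
SLC18A2: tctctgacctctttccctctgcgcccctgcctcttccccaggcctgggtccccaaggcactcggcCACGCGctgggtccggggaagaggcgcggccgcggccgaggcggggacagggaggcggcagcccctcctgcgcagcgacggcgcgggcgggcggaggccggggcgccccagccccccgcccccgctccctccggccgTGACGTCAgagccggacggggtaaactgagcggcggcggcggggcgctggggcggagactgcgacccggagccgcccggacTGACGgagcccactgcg
Both strands were searched. DBH had CACGNG on the minus strand 67 bases before its start and TGACG 181 bases before it. SLC18A2 had CACGNG 185 bases before its start, TGACGTCA 48 bases before it, and a further TGACG at base 34 counted from the start as 1. TGGGAA, the core bound by RBPJ, the DNA-binding partner of NOTCH3IC, had no match in either window. Of 35116 windows of this length, 30.5% held CACGNG, 24.6% TGACG, 1.85% TGACGTCA and 24% TGGGAA, so that all but the full response element are common letters. The matches are a description of these letters and say nothing of binding. Of the 10 genes, 6 had a window, and SLC6A2, TH and GCH1 were among the 4 without. Among the other members with a window, CACGNG also had matches in MAOB and CYB561, and none in DDC and MAOA. TGGGAA had matches in DDC, MAOA, MAOB and CYB561, of which DDC and CYB561 have several windows.

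Signals are scaled array intensities, and they are compared only within a probe set, since the brightness of different probe sets does not measure relative RNA amounts. Each gene was tested on its brightest probe set, as log2(signal + 16), and entered the test where the mean of those log values was at least the 40th percentile over the array, a signal of about 9.58. Of the 10 genes, 7 entered and 3 did not. Changes are log2 differences ± the standard error of the limma fit, with p-values adjusted by Benjamini-Hochberg over 13675 genes and a threshold of 0.05. In a bulk culture, fewer cells expressing a gene and less RNA per cell cannot be told apart.

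Late against start, DBH, SLC6A2 and SLC18A2 fell and no member rose. That is 3 of 7 lower and 0 of 7 higher in limma (4 lower and 0 higher at an unadjusted p under 0.05), where 1.73% of all tested genes were called lower and 5.21% higher. The median change of the 7 members was -0.46, against 0.02 over all tested genes. All 6 late arrays lay below their own clone's time 0 for DBH, SLC6A2, SLC18A2 and GCH1, which 12.7% of tested genes also did, and for no member did all 6 lie above it, as 16.9% of tested genes did. The other tested members did not pass, with DDC at 0.05 ± 0.21, GCH1 at -0.46 ± 0.21, MAOA at -0.00 ± 0.15 and CYB561 at 0.31 ± 0.22. TH, SLC18A1 and MAOB were below the intensity filter and did not enter this test. Over all times, SLC6A2 (adjusted p = 0.000495) and DBH (adjusted p = 0.00170) passed, 2 of 7, where 6.61% of all tested genes did.

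**Figure D1:**
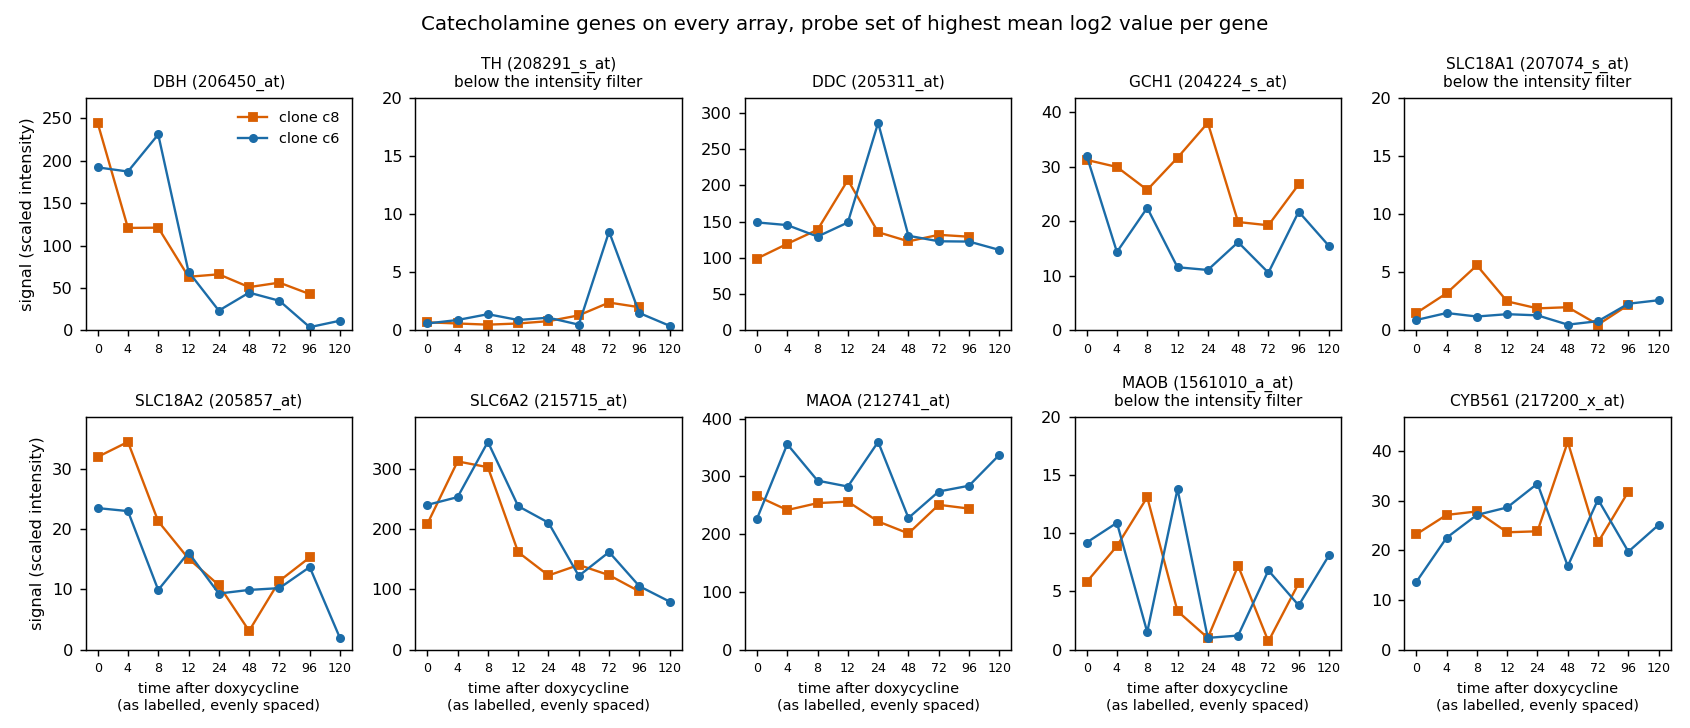
Signal (scaled intensity, linear axis from 0) of each catecholamine gene against labelled time, evenly spaced, for its brightest probe set; squares are clone c8, circles clone c6, 1 array per point. DBH, SLC18A2 and SLC6A2 end below their time 0 in both clones, DDC peaks at time 12 in c8 and at time 24 in c6, and TH, SLC18A1 and MAOB stay under a signal of 16.

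Among the genes of synthesis, DBH showed the largest change of the 7 tested members. Clone c8 gave DBH signals (probe set 206450_at) of 244.8, 120.9, 121.2, 63.3, 66.2, 51.1, 56.4 and 42.9 at times 0, 4, 8, 12, 24, 48, 72 and 96. Clone c6 gave 192.3, 187.4, 231.1, 69.3, 23.4, 44.6, 35.0, 3.9 and 11.5 at times 0, 4, 8, 12, 24, 48, 72, 96 and 120. The late arrays were below every early array in both clones. The late mean was 50.1 ± 6.80 in clone c8, against 244.8 at start, and 27.8 ± 21.3 in clone c6, against 192.3 at start (SD, n = 3 late arrays each). DBH fell by 2.19 ± 0.34 late against start (limma, adjusted p = 0.000546), and late was 1.42 ± 0.32 below early on the log2 scale (adjusted p = 0.0122).

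The clones differed in when the DBH signal dropped. At time 4, clone c8 had covered 46.8% of its own late log2 change, and at time 8 it had covered 46.7%. Clone c6 had covered 1.43% at time 4 and stood above its start at time 8. By time 12 the share was 86.5% in clone c8 and 53.7% in clone c6, and by time 24 it was 83.9% in clone c8 and 100.1% in clone c6. These shares rest on single arrays, and a difference of timing between the clones was not tested. The clone difference of the late against early change was 1.25 ± 0.57 (c8 minus c6, adjusted p = 0.565). In that limma comparison 0% of all tested genes passed, and 1193 had an unadjusted p under 0.05. With both clones together, DBH passed against start at times 12 (-1.50 ± 0.41, adjusted p = 0.0433), 24 (-2.03 ± 0.41), 48 (-1.87 ± 0.41), 72 (-1.94 ± 0.41) and 96 (-2.77 ± 0.41, adjusted p = 0.000534), and at time 120, which clone c6 alone supplies (-2.95 ± 0.52). At these times 6.16%, 8.18%, 3.69%, 4.24%, 5.13% and 4.17% of all tested genes passed. No other member passed at time 12 or 24. The second DBH probe set, 234916_at, lay between 0.7 and 5.6 on all 17 arrays and was too dim to follow.

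TH was among the dimmest probe sets on these arrays. Its only probe set, 208291_s_at, had a lowest signal of 0.4, a median of 0.9 and a highest of 8.5 over the 17 arrays, where the arrays' own medians ran from 14.6 to 19.3. The highest value belonged to clone c6 at time 72, and the next highest was 2.4, in clone c8 at the same time. TH was below the intensity filter, so no change of it was tested with the other genes. No fold is given, because both ends lie in the dim range. In the fit of every probe set, its late against start difference was 0.15 ± 0.10 (adjusted p = 0.655).

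DDC, the decarboxylase between TH and DBH, had a peak in the middle of each time course. Probe set 205311_at gave 99.1, 119.4, 138.8, 207.3, 135.4, 122.8, 131.8 and 129.2 at times 0 to 96 in clone c8, and 148.9, 145.2, 129.4, 148.8, 286.1, 130.5, 122.9, 122.5 and 111.0 at times 0 to 120 in clone c6. The highest array was time 12 in clone c8, 1.49 times the next highest, and time 24 in clone c6, 1.92 times the next highest. The other DDC probe set, 214347_s_at, was highest on the same arrays, with 51.2 in clone c8 at time 12 and 55.3 in clone c6 at time 24. The probe sets share these RNA samples, so their accord is no replicate of the peak. With both clones averaged at each time the largest DDC change was 0.63 ± 0.25 at time 24 (adjusted p = 0.144), and change over time did not pass (adjusted p = 0.451).

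The late DDC arrays of the clones met at nearly the same signal from unequal starts. The late mean was 128 ± 4.63 in clone c8, against 99.1 at start, and 125 ± 4.51 in clone c6, against 148.9 at start (SD, n = 3 late arrays each). Late against start was 0.05 ± 0.21, with a 95% interval of -0.39 to 0.49. All 3 late arrays were above time 0 in clone c8 and all 3 below it in clone c6, and the fit of this clone difference gave 0.55 ± 0.32 (c8 minus c6, adjusted p = 1.0). In that limma comparison 0% of all tested genes passed, and 284 had an unadjusted p under 0.05. The second probe set was above its time 0 on 7 of 7 later arrays in clone c8 and on 7 of 8 in clone c6, so the probe sets of DDC disagree on the direction in clone c6.

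GCH1, which makes the first step of the pterin cofactor, was the 1 of 7 members that differed between the clones, and it did not pass over time. Its single probe set, 204224_s_at, gave 31.3, 30.0, 25.8, 31.7, 38.1, 19.9, 19.3 and 26.8 at times 0 to 96 in clone c8. The values in clone c6 were 32.1, 14.4, 22.5, 11.6, 11.1, 16.2, 10.6, 21.8 and 15.5 at times 0 to 120. The clones were close at time 0, and clone c8 was higher at 7 of the 7 shared times after it. Over the 8 shared times GCH1 was 0.40 ± 0.13 higher in clone c8 than in clone c6 (adjusted p = 0.0356), where 21.7% of all tested genes differed between the clones and 11.4% were higher in c8. The call was lost without the array of time 4, 12, 24 or 72 of either clone, with adjusted p between 0.0633 and 0.0920. Late against start, GCH1 was at -0.46 ± 0.21 (adjusted p = 0.256).

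CYB561 had 5 probe sets that did not point the same way. The brightest, 217200_x_at, whose suffix marks probes that may cross-hybridise, lay between 13.6 and 41.8, and was above its own time 0 on 6 of 7 later arrays in clone c8 and on 8 of 8 in clone c6. Its late against start difference was 0.31 ± 0.22 (adjusted p = 0.509). In the fit of every probe set, 207986_x_at gave -0.35 ± 0.25, 209164_s_at 0.00 ± 0.22 and the dimmer 210816_s_at 0.54 ± 0.19, and none passed. The fifth, 209163_at, reached at most 7.5. No direction can be given for CYB561.

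Of the vesicular transporters, SLC18A2 fell and SLC18A1 was too dim to test. Clone c8 gave SLC18A2 signals (205857_at) of 32.0, 34.5, 21.3, 15.1, 10.7, 3.1, 11.4 and 15.3 at times 0 to 96. Clone c6 gave 23.5, 23.0, 9.9, 16.1, 9.3, 9.9, 10.2, 13.7 and 1.9 at times 0 to 120. Times 0 and 4 were the highest arrays in both clones, and the late arrays overlapped the early ones. The late mean was 9.93 ± 6.23 in clone c8, against 32.0 at start, and 11.3 ± 2.11 in clone c6, against 23.5 at start (SD, n = 3 late arrays each). SLC18A2 fell by 0.73 ± 0.20 late against start (limma, adjusted p = 0.0392), which understates the ratio because these signals lie around the added 16.

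The SLC18A2 call is close to the threshold. Without the time 0 array of clone c8 the adjusted p was 0.375, without that of clone c6 it was 0.205, and without any of 5 late arrays it lay between 0.0578 and 0.0807 (times 48, 72 and 96 of c8, times 72 and 96 of c6). Late against early gave -0.42 ± 0.17 (adjusted p = 0.210). The second SLC18A2 probe set, 1553328_a_at, stayed between 0.5 and 7.4. SLC18A1, the vesicular transporter of chromaffin cells, had a lowest signal of 0.5, a median of 1.5 and a highest of 5.6, the last in clone c8 at time 8.

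SLC6A2, the noradrenaline transporter, had the most probe sets, and its signal was highest soon after induction and lowest at the end. Clone c8 gave signals (215715_at) of 208.6, 312.7, 303.0, 161.8, 123.1, 140.6, 123.6 and 96.5 at times 0 to 96. Clone c6 gave 240.4, 253.3, 345.1, 238.3, 210.8, 122.4, 162.0, 105.2 and 79.6 at times 0 to 120. The highest arrays were times 4 and 8 in each clone and the lowest were the last time of each. Late arrays did not overlap early ones in either clone, which among the tested members also held for DBH. Of all tested genes, 1.34% had late arrays wholly below early ones in both clones.

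SLC6A2 was the member with the smallest adjusted p late against early. The late mean was 120 ± 22.2 in clone c8, against an early mean of 259 ± 84.5, and 130 ± 29.1 in clone c6, against an early mean of 279 ± 57.8 (SD, n = 3 each). Late was 0.995 ± 0.156 below early (log2, limma, adjusted p = 0.000840), and DBH was the other of 2 members called lower, where 1.41% of all tested genes were. Against start, SLC6A2 fell by 0.78 ± 0.17 late (adjusted p = 0.00793). That call rests on both time 0 arrays: the adjusted p was 0.127 without that of clone c8 and 0.124 without that of clone c6, with the difference at -0.78 and -0.79. By single times SLC6A2 passed at 96 (-1.04 ± 0.21, adjusted p = 0.00542) and at 120 (-1.43 ± 0.26, adjusted p = 0.00335).

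**Figure D2:**
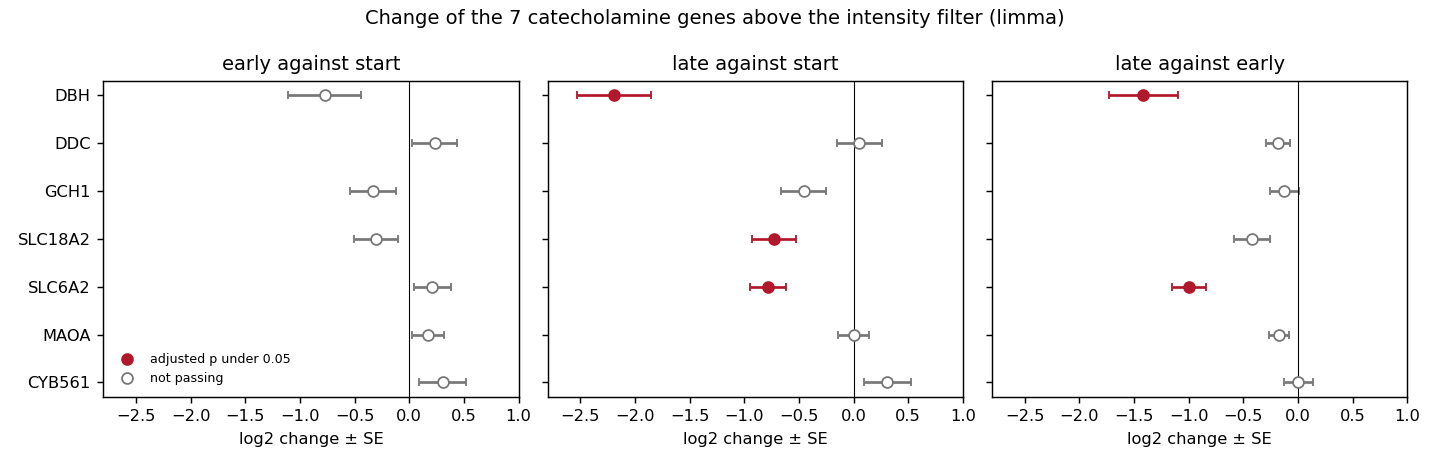
Log2 change ± standard error of the 7 tested catecholamine genes in the limma fits, early against start, late against start and late against early; filled points passed an adjusted p of 0.05. DBH and SLC6A2 are filled in the comparisons of late with start and with early, SLC18A2 in that with start, and no gene early against start.

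The signal of SLC6A2 was above its start before it was below it. Early against start no member passed in limma, where 2.01% of all tested genes did, and 1 member, DBH at -0.77 ± 0.34, had an unadjusted p under 0.05 (0.0364). SLC6A2 stood at 0.21 ± 0.17. Times 4 and 8 averaged, a grouping added after the values were seen, were 0.41 ± 0.18 above start, which did not pass (adjusted p = 0.559), as 0.446% of all tested genes did. Late was 1.19 ± 0.13 below those times (adjusted p = 2.12e-05), where 2.26% of all tested genes were called lower. Those times hold the highest SLC6A2 arrays of each clone, so the choice of them favours this p-value, and it adds no support. DBH was at -0.41 ± 0.36 at times 4 and 8 against start (adjusted p = 0.832), an average of unlike clones. From its own time 0, DBH in clone c8 was at -0.93 at both times. In clone c6 it was at -0.03 at time 4 and at 0.25 at time 8.

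Of the 8 SLC6A2 probe sets, 5 reached the intensity filter, and these were read on the same RNA samples. All 5 were above their own time 0 at times 4 and 8 in clone c8 and at time 8 in clone c6, and 4 of 5 were so at time 4 in clone c6. From time 12 all 5 were below their time 0 in clone c8, whereas in clone c6 it was from time 48, apart from 239394_at. That probe set gave 30.6, 32.7 and 39.6 at the late times of clone c6, against 32.7 at start. Late arrays lay below every early array of both clones in 4 of the 5, where 0.69% of all 54675 probe sets did.

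Tested across every probe set, the same 4 were called lower late against early, where 0.353% of all probe sets were. These were 216611_s_at at -1.10 ± 0.16, 217621_at at -1.05 ± 0.18, 215715_at at -0.995 ± 0.158 and 210353_s_at at -0.78 ± 0.14. The fifth, 239394_at, was at -0.52 ± 0.13 (adjusted p = 0.0738). Late against start, 215715_at (adjusted p = 0.0249) and 217621_at (adjusted p = 0.0307) passed, 2 of 8, where 0.472% of all probe sets were called lower. The 3 dim probe sets, 216610_at, 217214_s_at and 217213_at, lay between 0.6 and 20.7 and none passed in these fits. When the mean of all 8 stood for the gene, the late against start change was -0.41 ± 0.13 (adjusted p = 0.108).

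**Figure D3:**
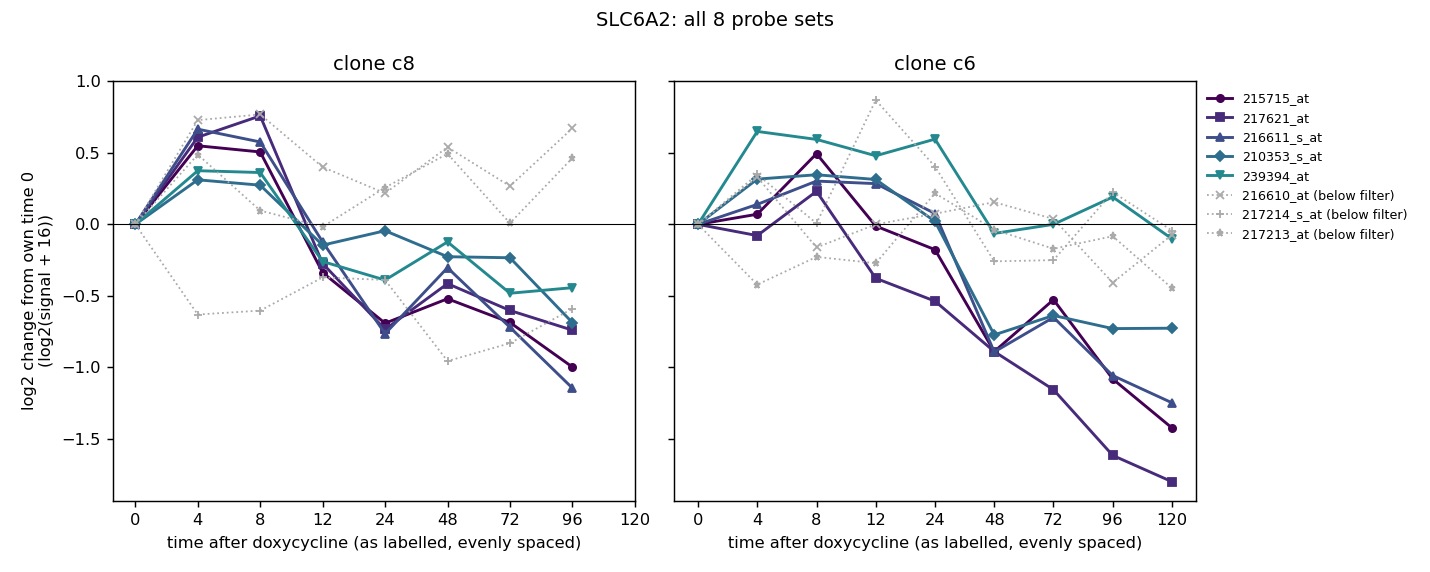
Log2 change of signal + 16 from the clone's own time 0 for all 8 SLC6A2 probe sets against labelled time, evenly spaced, with clone c8 on the left and clone c6 on the right, 1 array per point; dotted grey lines are the 3 probe sets below the filter. The 5 solid lines are above 0 at time 8 in both clones, and at the late times all are below 0 in clone c8 and 4 of 5 in clone c6.

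MAOA, the oxidase that prefers noradrenaline and serotonin, had no change over time that passed (adjusted p = 0.655). Clone c8 gave signals (212741_at) of 265.8, 241.5, 253.5, 256.1, 221.7, 201.0, 250.6 and 244.0 at times 0 to 96. Clone c6 gave 226.3, 355.5, 292.4, 282.2, 359.5, 227.8, 273.6, 283.6 and 337.0 at times 0 to 120. The clones moved to opposite sides of their starts, with 7 of 7 later arrays below time 0 in c8 and 8 of 8 above it in c6. Late against start was -0.00 ± 0.15, with a 95% interval of -0.31 to 0.31.

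The other MAOA probe sets did not share this split between the clones. The level over shared times was -0.22 ± 0.09 (c8 minus c6, adjusted p = 0.0885), and passed without the time 0 array of clone c8 (adjusted p = 0.0383) or of clone c6 (adjusted p = 0.0381). The fit of the clone difference in late change from start gave -0.38 ± 0.26 (adjusted p = 1.0). Probe set 204389_at went the other way, with 6 of 7 later arrays above time 0 in clone c8 and 7 of 8 below it in clone c6. Probe set 204388_s_at had 4 of 7 below in clone c8 and 6 of 8 below in clone c6.

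MAOB, the oxidase that prefers phenylethylamine, was dim. Its 3 probe sets lay between 0.3 and 16.9 over the 17 arrays, with a median of 1.4, and 1 value was over 16, in probe set 1561009_at of clone c6 at time 12. None reached the filter. In the fit of every probe set, none of the 3 passed late against start.

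**Figure D4:**
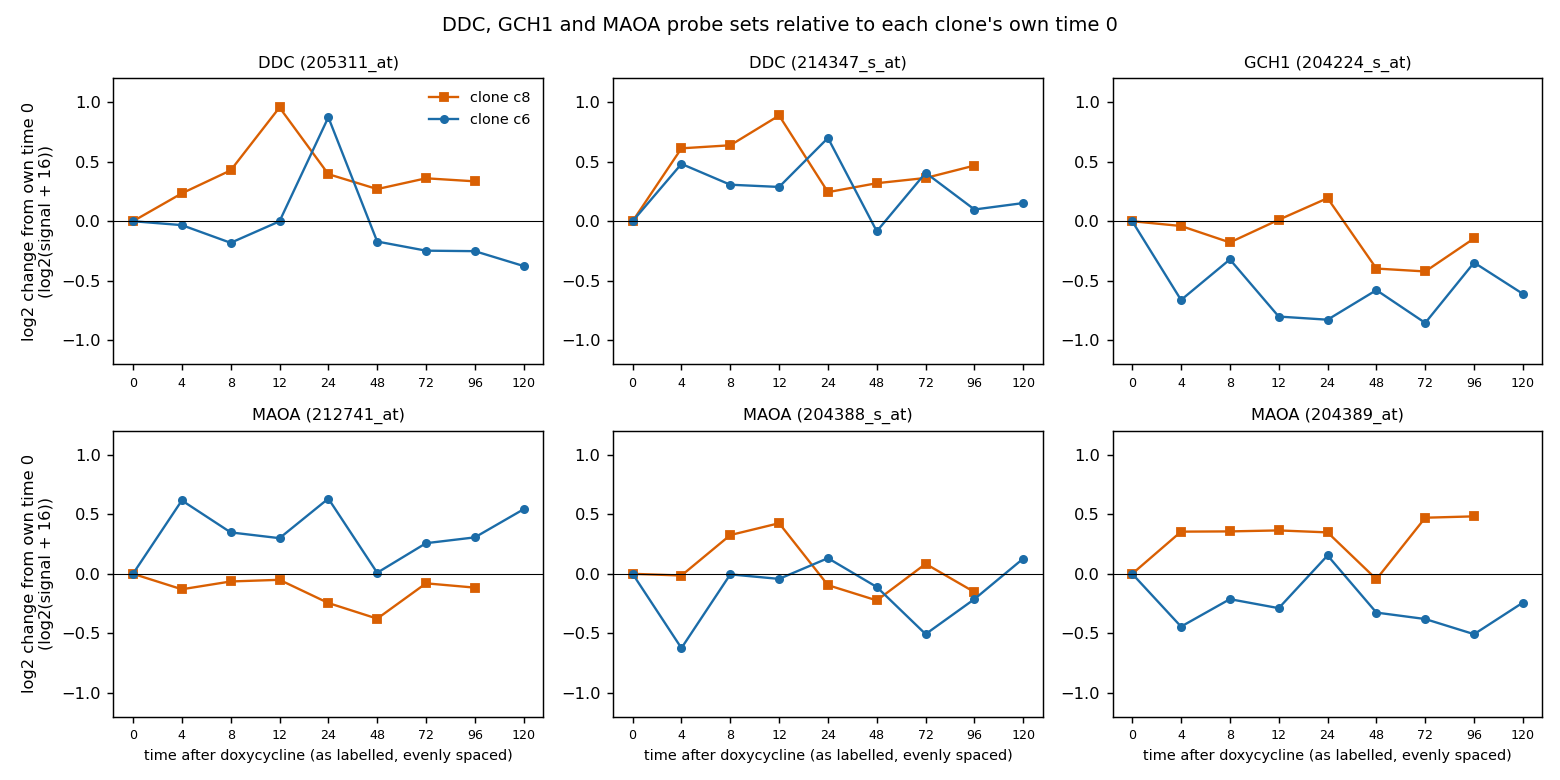
Log2 change of signal + 16 from the clone's own time 0 for the DDC, GCH1 and MAOA probe sets against labelled time, evenly spaced; squares are clone c8, circles clone c6, 1 array per point. Both DDC probe sets peak at time 12 in c8 and at time 24 in c6, GCH1 lies higher in c8 at each later shared time, and the MAOA probe sets disagree on which clone lies above 0.

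Genes around the pathway were read from lists of 60 genes, of which 50 had a probe set and 41 were tested. Late against start 4 rose and 1 fell, where 5.21% of all tested genes rose and 1.73% fell. RNLS, which encodes renalase, a flavoprotein first described as an amine oxidase, gave 29.7 ± 4.10 late in clone c8, against 2.0 at start, and 32.0 ± 16.4 late in clone c6, against 1.3 at start (SD, n = 3 late arrays each). RNLS rose by 1.37 ± 0.23 (limma, adjusted p = 0.00115), on starts that lie in the dim range in both clones. SULT1A1, a sulfotransferase of phenols, rose by 0.55 ± 0.14 (adjusted p = 0.0313), on a probe set whose suffix marks possible cross-hybridisation. The 6 tested genes of methylation and further breakdown thus held 2 that rose and none that fell, and PNMT, which makes adrenaline, was at 0.25 ± 0.32.

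SLC7A5, a subunit of the importer of large neutral amino acids including tyrosine, rose in both phases. Its late signal was 503 ± 57.4 in clone c8, against 222.2 at start, and 409 ± 99.1 in clone c6, against 246.1 at start (SD, n = 3 late arrays each). The change was 0.90 ± 0.18 late (adjusted p = 0.00556) and 0.78 ± 0.18 early (adjusted p = 0.0389). Early against start this was the 1 of 41 listed genes that rose, and ADRA2A the 1 that fell. Of all tested genes, 1.29% rose and 0.724% fell in that comparison. The other 2 genes of tyrosine import did not pass.

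Of 7 tested receptors, 1 rose and 1 fell late against start, where 5.21% of all tested genes rose and 1.73% fell. ADRA2A, the alpha-2A adrenergic receptor that restrains noradrenaline release from the cell that carries it, gave 94.2 ± 8.06 late in clone c8, against 132.7 at start, and 132 ± 12.4 late in clone c6, against 260.5 at start (SD, n = 3 late arrays each). ADRA2A fell by 0.67 ± 0.17 late (adjusted p = 0.0216) and by 0.92 ± 0.17 early (adjusted p = 0.00931), and was 0.74 ± 0.10 lower in clone c8 than in clone c6 (adjusted p = 0.000175). ADRA1A, the alpha-1A receptor, rose by 1.23 ± 0.22 late (adjusted p = 0.00193) on dim starts of 0.4 in clone c8 and 2.9 in clone c6. None of the 6 pterin cofactor genes, 4 other amine transporters, 4 cytochrome b561 relatives and 11 kinases and partners of TH passed late against start.

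**Figure D5:**
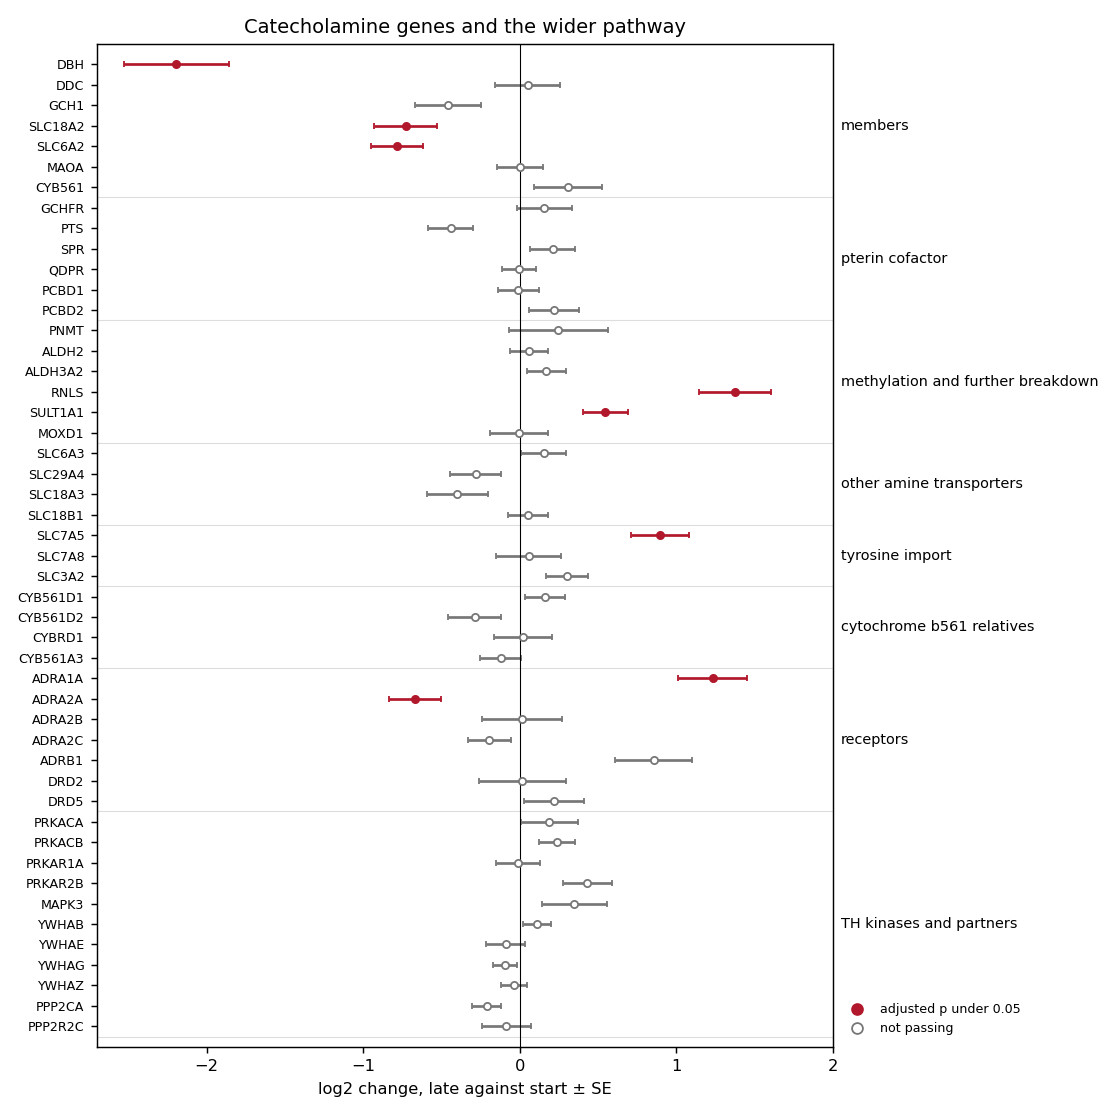
Log2 change late against start ± standard error (limma) for the 7 tested catecholamine genes and the 41 tested genes of the surrounding lists, grouped by list; filled points passed an adjusted p of 0.05. RNLS, SULT1A1, SLC7A5 and ADRA1A lie right of 0 among the filled points, and DBH, SLC18A2, SLC6A2 and ADRA2A left of it.

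Of the 6 tested genes of the pterin list, 3 were higher in clone c8 and none lower in limma, where 11.4% and 10.2% of all tested genes were. GCHFR, the feedback regulator of the GCH1 enzyme, was 0.55 ± 0.11 higher in c8 (adjusted p = 0.00248), PTS, the next enzyme after GCH1, 0.27 ± 0.09 (adjusted p = 0.0416), and QDPR, which recycles the cofactor, 0.30 ± 0.07 (adjusted p = 0.00537). SPR, which makes the last step of the cofactor, was at -0.14 ± 0.09 (adjusted p = 0.274), and PCBD1 and PCBD2 did not pass. These were named after their values were seen. Over all 41 listed genes 8 were higher in c8 and 4 lower.

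The genes whose log2 course from time 0 was nearest to a member were found by the root mean square difference over the 15 later arrays. For DBH these were NANOS1, a translational repressor, at 0.669, EGR1, an immediate early transcription factor, at 0.751, and HSPA12A, a relative of the heat shock protein 70 family, at 0.764, where the median over all tested genes was 1.94. For SLC6A2 they were CHRNA1, a nicotinic acetylcholine receptor subunit, at 0.288, PHOX2A, a homeodomain factor of sympathetic neurons, at 0.327, and IGSF1 at 0.333, with a median of 0.762. For SLC18A2 they were CCDC47 at 0.272, TMEM64 at 0.285 and LPGAT1 at 0.306, with a median of 0.753. Among the 7 tested members, the pair MAOA and CYB561 was nearest at 0.327 and DBH and CYB561 farthest apart at 2.21. These distances describe 15 arrays of 2 clones, and the flattest genes are near each other by construction.

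Markers of other cell types were read beside the falls of DBH, SLC6A2 and SLC18A2. Of 11 tested sympathetic neuroblast markers, GATA2 and STMN2 rose and PHOX2A fell late against start (-0.77 ± 0.13, adjusted p = 0.00127). Of all tested genes, 5.21% rose and 1.73% fell. The list's summed signal was 12747 to 14976 on late arrays, against 15884 to 16109 at start. On early arrays it was 13444 to 15947, which overlaps the late range. These sums add probe sets of unequal brightness and are led by the brightest, here MYCN, GATA3 and TUBB3, while STMN2 adds almost nothing. Of 8 tested smooth muscle and fibroblast markers ACTA2, TAGLN, MYH11, CNN1, COL3A1 and LUM rose, 6 in all, beside the same 5.21% of all tested genes. ACTA2 (smooth muscle actin) was at 5.88 ± 0.48 (adjusted p = 1.86e-06). The summed signal of this list was 6431 to 17034 on late arrays, where ACTA2 and COL3A1 led it, against 316 to 467 at start, where COL1A1 did. On early arrays it was 324 to 1342. The part of this rise in the falls of DBH, SLC6A2 and SLC18A2 was not tested. Of 3 measured Schwann cell markers 1 reached the filter, with a summed signal of 12.7 to 44.6 late, against 7.7 to 34.8 at start, and of 4 serotonergic markers 1 did, at 10.8 to 40.7 late, against 31.9 to 32.2 at start.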

How the data were processed

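RNA of 17 IMR32 cultures or time points (9 of clone c6, 8 of clone c8) was measured on Affymetrix arrays. The deposited intensity values are linear, made with MAS5 and GCOS per the submitters' processing notes, which give no versions. The authors had scaled each array to a 2% trimmed mean of 100.01, as the values show. Detection calls and scanner files were not used here.

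Of 54675 probe sets, 41097 had 1 gene symbol, 1801 several and 11777 none listed in the platform annotation. Intensities were taken as log2(value + 16) with no further normalization, and tested with limma 3.58.1 in R 4.3.3 (lmFit, eBayes with an intensity trend). Comparisons with start and change over time used all 17 arrays, with time and clone as terms (7 residual degrees of freedom). Late against early used 12 arrays with phase and clone (9), the clone difference in response their interaction (8), and the clone difference in level the 16 arrays of shared times (7). In the fits with time terms the 2 clones at a time give the residual spread, and in the phase fits neighbouring times also do. Separate cultures are not stated, so the p-values reflect only how these arrays vary, and their number limits the precision. Clones pair by their labels: clone differences at shared times correlated between 0.13 and 0.49. No date or batch is given.

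The members, lists and tests were chosen with earlier results of these data known. Named by rule were all members, each gene of the surrounding pathway lists called late against start, and the 3 nearest genes of each member called late against start. GCHFR, PTS, QDPR, SPR, PNMT, NOTCH3 and the cell type markers lie outside this rule and were named after their values were seen. Other settings tried were every probe set or the mean over those of a gene, pseudocounts of 1 or 64, centring on medians or quantile normalization, a 60th percentile filter or none, phase terms, eBayes with no trend, a fit with no clone term, single clones and single arrays omitted. The fits were tested on simulated arrays.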

Additional observations from a re-analysis of the deposited data

Results flagged for a closer look

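On the brightest probe sets of DDC and MAOA every late array of clone c8 lay on the opposite side of its own time 0 from every late array of clone c6. DDC was above time 0 in c8 and below it in c6, and the difference of the late change was 0.55 ± 0.32 on the log2 scale (c8 minus c6). MAOA was below time 0 in c8 and above it in c6, at -0.38 ± 0.26. Both differences were tested as an interaction in limma added after the values were seen, and neither passed (adjusted p = 1.0 each). Each clone has 1 array at time 0, so both signs rest on 2 arrays. The other probe sets did not share the split: the second of DDC was above time 0 on 3 of 3 late arrays in c8 and 2 of 3 in c6, 204389_at of MAOA was above it on 2 of 3 in c8 and below it on 3 of 3 in c6, and 204388_s_at was below it on 2 of 3 in c8 and 3 of 3 in c6.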

How the results depend on the processing

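DBH kept its call late against start under every setting except clone c6 alone (adjusted p = 0.0752), and DBH and SLC6A2 kept theirs late against early except in clone c8 alone (adjusted p = 0.144 and 0.0891). Of 3 members lower late against start, 1 passed with probe sets averaged per gene, 2 with a filter at the 60th percentile, 1 in clone c8 alone and 0 in clone c6 alone; leaving out 1 array gave between 1 and 3. Without the replicate block, that is with no clone term, 2 passed, SLC18A2 being lost (adjusted p = 0.0594); pairing by clone changed no other call. SLC18A2 was also lost with a pseudocount of 1 (adjusted p = 0.0913), with every probe set (0.0868), with phase terms (0.0738) and in clone c8 (0.389) or c6 (0.556) alone, and it was too dim to enter the test with a filter at the 60th percentile or with probe sets averaged. SLC6A2 late against start was lost without time 96 of both clones (adjusted p = 0.0595), a setting added after the values were seen. Late against early, 2 members were lower, and 0 in clone c8 alone. In level, the 1 member higher in clone c8 (GCH1) became 0 with no filter, with every probe set and with a filter at the 60th percentile, which GCH1 did not reach, and between 0 and 1 when 1 array was left out; the 0 members lower became 1 (MAOA) without either time 0 array, a range of 0 to 1.

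Differences near 0 that passed nowhere changed sign. DDC late against start was -0.022 with median centring, -0.22 in clone c6 alone and -0.16 to 0.26 with 1 array left out, and DDC early against start was -0.072 in clone c6 alone. MAOA late against start was 0.00046 with a pseudocount of 64, 0.0041 with quantile normalization, 0.19 in clone c6 alone and -0.25 to 0.25 with 1 array left out. MAOA early against start was -0.082 in clone c8 alone and -0.082 to 0.42 with 1 array left out. GCH1 late against early was 0.0011 in clone c6 alone. CYB561 late against early was -0.016 with a pseudocount of 1, -0.012 with quantile normalization, -0.0089 with median centring, -0.15 in clone c6 alone and -0.080 to 0.067 with 1 array left out, and its level was -0.015 with the mean of its probe sets. The cause was not tested. Start rests on 2 arrays and each time on 1 array per clone, which limits every comparison with start, and signals under about 16 carry little on this scale.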

Other observations

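Cholinergic markers were read because sympathetic neurons can use acetylcholine in place of noradrenaline. Of 6 on the array 4 were tested, and 1 fell late against start, where 1.73% of all tested genes were called lower. CHAT, which makes acetylcholine, gave 64.1 ± 9.76 late in clone c8, against 137.4 at start, and 35.4 ± 7.69 late in clone c6, against 48.1 at start (SD, n = 3 late arrays each). CHAT fell by 0.64 ± 0.18 (limma, adjusted p = 0.0473) and was 0.83 ± 0.11 higher in clone c8 than in clone c6 (adjusted p = 0.000139). The call of a fall is close to the threshold, and the start signal of clone c8, 137.4, was the highest CHAT signal on any array. SLC18A3, the vesicular acetylcholine transporter, was at -0.40 ± 0.19 late against start (adjusted p = 0.292). The summed signal of the list was 258 to 289 on late arrays, against 253 to 379 at start.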
